A study of Homo sapiens with 6 samples.

Results

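The HOX genes and the long non-coding RNAs (lncRNAs) transcribed from the 4 HOX clusters were followed in LN-229, T98G and U251 cells, 3 established lines grown from human glioblastomas. They were taken from the expression table by symbol, as every gene named HOXA, HOXB, HOXC or HOXD with a number, every antisense transcript named after such a gene or cluster, and the lncRNAs HOTAIRM1, HOTAIR and HOTTIP. This gave 55 of the 59074 listed genes, of which 39 code for proteins and 16 are lncRNAs. Each cell line was transfected with a non-target siPOOL (siControl) or with a HOTAIRM1-specific siPOOL (siHOTAIRM1), a pool of siRNAs, and RNA was collected 72 h later. There was 1 library per cell line and condition (6 libraries in all), made from 500 ng of total RNA. The labels name no other treatment or genetic change of these lines, and the titles spell LN-229 as LNT229.

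HOX genes code for homeodomain transcription factors that give cells along the body axis their positional identity. In each cluster the genes lie side by side on the same strand, and genes at the 3′ end (low numbers) are switched on earlier and further towards the head than genes at the 5′ end (high numbers). Genes with the same number in different clusters are paralogues of each other. Polycomb complexes keep the clusters silent, Trithorax complexes and retinoic acid open them, and lncRNAs from the clusters take part in this control. HOTAIRM1 lies at the 3′ end of HOXA and is known from myeloid cells and retinoic acid-treated cells, HOTTIP starts next to HOXA13 and is known to bind the Trithorax adaptor WDR5, and HOTAIR lies between HOXC11 and HOXC12 and is known to bind Polycomb proteins. Normal forebrain and astrocytes are outside the HOX-expressing part of the body axis, whereas glioblastomas often express HOX genes.

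On hg38 the members of the HOXA cluster span chr7:27092993-27207259 with 17 members, those of HOXB chr17:48528526-48728750 with 14, those of HOXC chr12:53935328-54056030 with 14, and those of HOXD chr2:176092721-176190907 with 10. The library kit does not mark the strand of the RNA, and 31 of the 55 members share exon bases with a member on the opposite strand, among them 15 of the 17 in HOXA. Reads from those bases cannot be told apart between the partners. In 10 members, some of them also among these, exon bases are shared with a member on the same strand. The authors' software split reads between genes, and 14 members, HOTAIRM1 among them, held a share of a read in some library. These 14 are not the same set as the 10.

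Upstream sequences are shown for HOXD10 and HOXD11, neighbours whose levels were higher after the knock-down in all 3 cell lines, and for the space between the start sites of HOXA13 and HOTTIP, which were each above 1.5-fold higher in 1 cell line. They were taken from RefSeq (GRCh38.p14), which had a promoter entry for 29 of the 55 members, and each is the 250 bases before an annotated start. Capitals mark a match to TGATNNAT, the sequence bound by PBX and HOX proteins together, searched on both strands.
HOXD11 (chr2:176107030-176107279, plus strand): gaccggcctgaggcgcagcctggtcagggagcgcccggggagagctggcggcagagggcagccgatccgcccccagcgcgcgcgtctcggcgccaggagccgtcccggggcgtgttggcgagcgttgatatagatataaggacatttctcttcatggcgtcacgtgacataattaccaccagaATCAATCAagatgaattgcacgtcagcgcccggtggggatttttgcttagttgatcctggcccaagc
HOXD10 (chr2:176116528-176116777, plus strand): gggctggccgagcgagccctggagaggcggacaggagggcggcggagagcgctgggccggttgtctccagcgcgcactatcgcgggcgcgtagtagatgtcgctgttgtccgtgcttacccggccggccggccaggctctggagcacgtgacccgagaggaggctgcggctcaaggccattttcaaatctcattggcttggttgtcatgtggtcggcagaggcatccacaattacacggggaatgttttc
HOTTIP (chr7:27200171-27200420, plus strand): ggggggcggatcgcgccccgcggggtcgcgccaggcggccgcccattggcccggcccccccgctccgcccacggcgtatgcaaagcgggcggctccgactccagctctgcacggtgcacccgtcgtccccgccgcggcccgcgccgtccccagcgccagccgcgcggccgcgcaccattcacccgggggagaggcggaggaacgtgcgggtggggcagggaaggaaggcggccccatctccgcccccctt
HOXA13 is transcribed from the other strand, away from the third window, and its RefSeq start at 27200091 lies 330 bases from that of HOTTIP. With 50 bases after the start included, 4 of the 37 member windows (10.8%) had a TGATNNAT match, against 7.40% of all 35116 promoter windows. These 4 windows were those of HOXD11, HOXA2, HOXA-AS3 and HOXB1. The median number of CpG dinucleotides was 15 in member windows and 14 in all windows. Matches to TATAAA were found in 6 member windows (16.2%), against 11.5% of all windows, and no match of this motif overlapped a TGATNNAT match. These matches describe the letters of the windows and were not tested as binding sites.

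The clusters also hold microRNA genes whose targets are HOX transcripts. miR-196a and miR-196b, from the HOXB, HOXC and HOXA clusters, share a seed (bases 2 to 8, in capitals), and sites for it are shown because several HOX genes that set the cell lines apart carry one.
miR-196a-5p: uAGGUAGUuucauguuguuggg
miR-196b-5p: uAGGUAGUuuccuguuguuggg
In the sites below, read 5′ to 3′ on the mRNA, capitals mark the 8 bases that match the seed and the base opposite its first position.
HOXB7 (3′ UTR, chr17:48607614-48607635, minus strand): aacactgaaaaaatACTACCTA
HOXB6 (3′ UTR, chr17:48595934-48595955, minus strand): tggaaggagcacatACTACCTA
HOXA5 (3′ UTR, chr7:27141387-27141408, minus strand): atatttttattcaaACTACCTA
HOXC8 (3′ UTR, chr12:54012231-54012252, plus strand): taaatctttaacatACTACCTA
The HOXB8 transcript has no such match, but a stretch that pairs with nearly the whole of miR-196a-5p. There, 21 of the 22 bases form Watson-Crick pairs and the other forms a G:U pair within the seed, whose partner bases are in capitals.
HOXB8 (3′ UTR, chr17:48612770-48612791, minus strand): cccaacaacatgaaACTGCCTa
The match of 8 bases occurred in the 3′ UTR of 6 of the 39 coding members (15.4%), namely HOXA5, HOXA7, HOXA9, HOXB6, HOXB7 and HOXC8, against 1.41% of 19559 protein-coding genes. The corresponding match for miR-10a-5p was present in HOXA3 and HOXB3 (5.13% of members, 1.99% of all genes), and that for miR-615-3p in HOXC6 (2.56% and 0.491%). The miRNA genes themselves (MIR196A1, MIR196A2, MIR196B, MIR10A, MIR10B and MIR615) were listed at 0 in every library, so their levels were not measured here.

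Expression values were CPM, read counts scaled to a common library size of 1 M reads (M, mega). The listed genes summed to 42.9 to 67.2% of that size. In siControl and siHOTAIRM1 this share was 47.0% and 48.5% for LN-229, 50.2% and 42.9% for T98G, and 67.2% and 55.9% for U251. CPM ratios within a line carry this difference in scale. The depth, read from the steps between low values, was 52.3 to 104 M reads per library, of which 31.2 to 56.6 M lay on listed genes. Thus 3 reads, taken as the smallest detectable level, were 0.0289 to 0.0574 CPM. The intervals given are exact 95% intervals that cover counting error only, with shares of a read rounded to whole reads. Glioma and mesenchymal markers were present but differed between the lines. VIM was at 254 CPM or more and CD44 at 304 CPM or more in every library, and the neural progenitor marker NES was at 329 CPM or more in LN-229 and U251 but at 0.956 and 0.866 CPM in T98G. SOX2 was near 0 in T98G and GFAP near 0 in LN-229 and T98G. Markers of blood, epithelial, endothelial and neuronal cells (PTPRC, HBB, EPCAM, CDH1, PECAM1 and RBFOX3) reached at most 0.522 CPM. In bulk RNA, fewer cells expressing a gene and less RNA per cell cannot be told apart.

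A member was counted as on in a cell line when both of its libraries reached 1 CPM, which corresponds to 52.3 to 104 reads. By this count LN-229 had 22 members on, T98G had 19 and U251 had 12, and 10 were on in all 3 lines (HOXB3, HOXC4, HOXC6, HOXC10, HOXC13, HOXD4, HOXD8, HOXD9, HOXD10 and HOXD11). Of all listed genes, LN-229 had 23% on, T98G 22.6% and U251 22%, so the share of members on was near that of all genes in U251 (21.8%) and above it in LN-229 (40%) and T98G (34.5%). A further 26 members were on in no line. The number depends on the limit, since 43, 41 and 33 members had at least 3 reads in both libraries of LN-229, T98G and U251, and 4, 1 and 5 members reached 5 CPM. Another limit is that 6 members stayed under 3 reads in all libraries, namely HOXA10-AS, HOXB-AS1, HOXB-AS2, HOXB-AS4, HOXB1 and HOXC12.

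**Figure D1:**
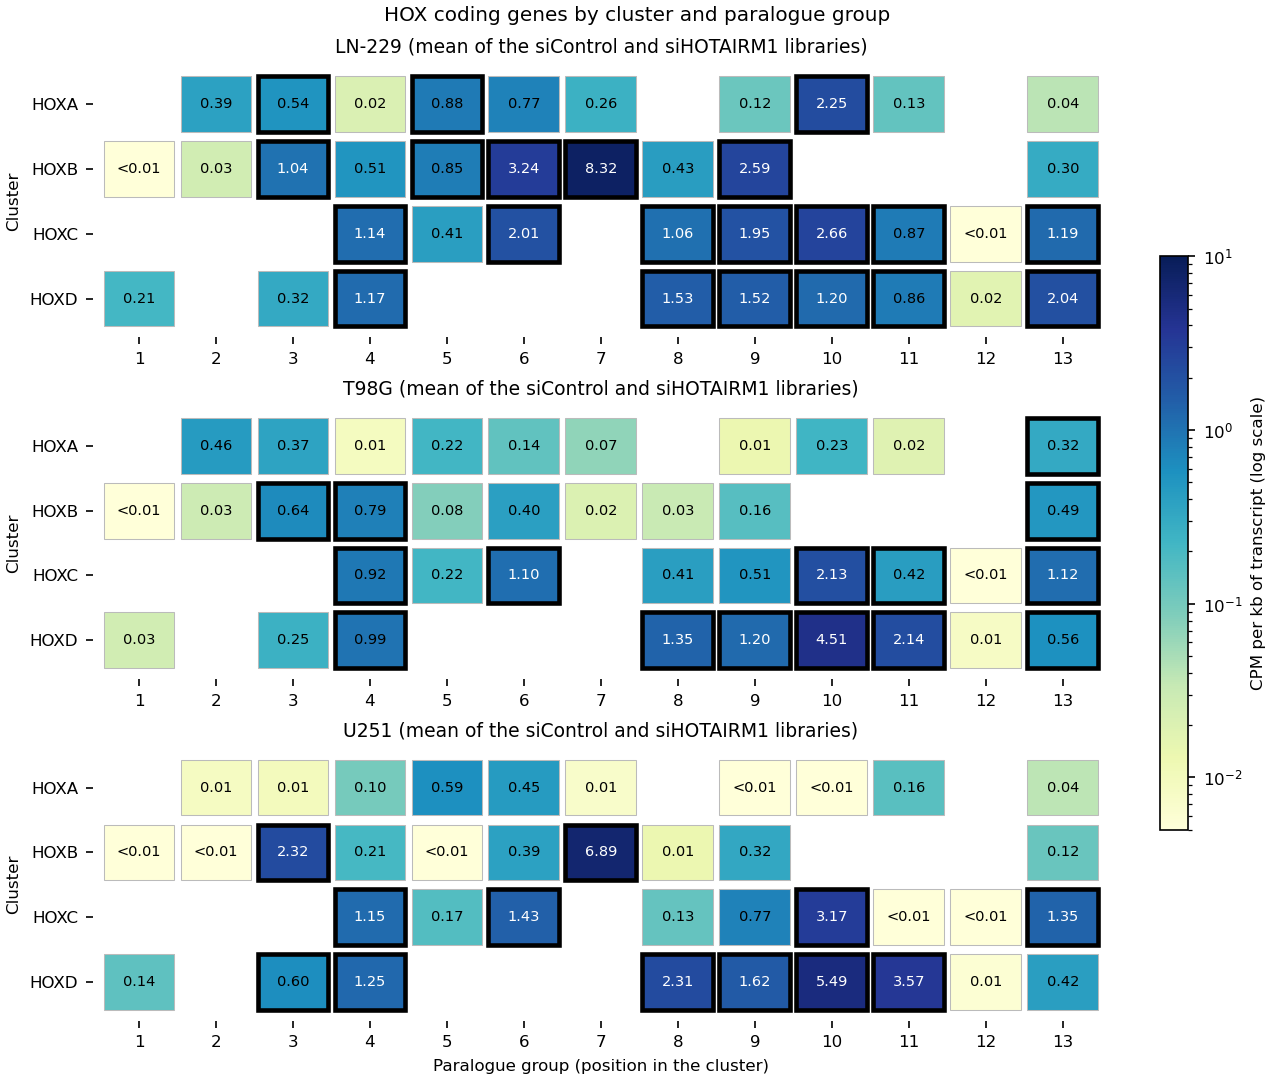
Levels of the HOX coding genes, with the 4 clusters as rows and the paralogue groups as columns, in LN-229 (top), T98G (middle) and U251 (bottom). Colour and numbers give CPM per kb of the main transcript, averaged over the siControl and siHOTAIRM1 libraries, and thick frames mark genes at 1 CPM or more in both libraries. HOXD8 to HOXD11 are framed in every line, and HOXB7 has 8.32 CPM per kb in LN-229 and 6.89 in U251 but 0.0207 in T98G.

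The lines differed in which clusters were on. In HOXA, 4 of 11 coding genes were on in LN-229 (HOXA3, HOXA5 and HOXA10 among them), 2 in T98G (HOXA13 among them) and 0 in U251. HOXB had 5, 3 and 2 of 10 genes on in LN-229, T98G and U251, and HOXC 7, 5 and 4 of 9. In HOXD the number was 6 of 9 in each line, but HOXD13 was on in LN-229 and T98G and HOXD3 in U251. By position, paralogues 9 to 13 had 10 of 16 genes on for LN-229, 9 for T98G and 5 for U251, while paralogues 1 to 3 gave 3, 2 and 2 of 8.

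Summed over coding genes, and without regard to transcript length, most CPM fell in the HOXB cluster in LN-229, with 28.8 CPM in siControl and 33.9 CPM in siHOTAIRM1. In T98G (18.7 and 22.6 CPM) and in U251 (27.1 and 31.2 CPM) most fell in HOXD. The fewest fell in HOXA in every line, with 11.1 and 15.1 CPM in LN-229, 5.75 and 6.41 CPM in T98G, and 2.30 and 3.65 CPM in U251. HOXA thus made up 14% of the HOX coding CPM in siControl LN-229 cells and 3.57% in siControl U251 cells.

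Differences between cell lines were tested with limma on log2(CPM + 1) with the condition in the model, for the 22 members that averaged 1 CPM or more over the libraries. The test passed for 18 of them, and for 81% of all 14294 genes tested, so this number is not particular to HOX genes. A member that entered through the line in which it is high was also bound to differ. This holds for HOXA10, HOXB6, HOXB9 and HOXC8, which averaged under 1 CPM outside LN-229, and for HOTAIR, under 1 CPM outside T98G. Their p-values below add nothing to their levels. Between T98G and LN-229, 15 members differed (54.9% of all genes), between U251 and LN-229 14 (60.6%), and between U251 and T98G 13 (64.2%). The libraries of a line differ in condition and come from the same line, so the spread in this test is that left after both are fitted. It is also drawn towards the spread of genes at a similar level, so the p-values do not rest on each gene's own libraries alone.

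HOXB7, whose protein binds DNA together with PBX proteins, separated T98G from the other lines. It was at 11.2 CPM in siControl and 11.5 CPM in siHOTAIRM1 LN-229 cells, at 10.3 and 8.45 CPM in U251, and at 0.0290 and 0.0275 CPM (2 reads each) in T98G. The level in siControl LN-229 cells was 387 times that in siControl T98G cells (interval 107 to 3196), and T98G was lower than LN-229 by 3.58 ± 0.17 (SE) on the log2(CPM + 1) scale (adjusted p = 1.13e-19). Between U251 and LN-229 the difference was -0.25 ± 0.17 and did not pass (adjusted p = 0.201).

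The neighbours of HOXB7 were high in LN-229 only. HOXB6 was at 5.23 and 5.61 CPM in LN-229, at 0.659 and 0.692 CPM in T98G, and at 0.632 and 0.672 CPM in U251. HOXB9 was at 5.25 and 8.14 CPM in LN-229, 0.449 and 0.371 CPM in T98G, and 0.746 and 0.919 CPM in U251. The LN-229 libraries of both genes lay above all other libraries. The U251 minus LN-229 differences were -1.96 ± 0.15 for HOXB6 (adjusted p = 9.35e-14) and -2.04 ± 0.16 for HOXB9 (adjusted p = 1.78e-13). Both genes entered the test through LN-229 alone and so were bound to differ. HOXB5, at 1.57 CPM in both LN-229 libraries, did not exceed 0.206 CPM elsewhere, and HOXB8, at 0.657 and 1.21 CPM in LN-229, did not exceed 0.0825 CPM elsewhere. HOXB7, HOXB6 and the HOXB8 transcript carry the miR-196 sites shown above, and so do HOXA5 and HOXC8. HOXB5 and HOXB9 have no match of 8 bases, while HOXA7 and HOXA9 have one and stayed at or below 0.566 CPM in all libraries. A link between sites and levels was not tested.

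At the ends of HOXB the order was another. HOXB3, at the head end of the cluster, was highest in U251, with 6.72 and 8.61 CPM, against 2.98 and 3.89 CPM in LN-229 and 1.83 and 2.4 CPM in T98G. The U251 minus T98G difference of HOXB3 was 1.47 ± 0.17 (adjusted p = 1.99e-09). HOXB4, a regulator of blood stem cells, was at 1.67 and 1.48 CPM in T98G, 1.09 and 0.973 CPM in LN-229 and 0.442 and 0.400 CPM in U251. HOXB4 was thus highest in T98G, and the U251 minus T98G difference was -0.86 ± 0.14 (adjusted p = 2.57e-06). HOXB13, known for its role in prostate epithelium, was at 1.53 and 1.43 CPM in T98G, 0.838 and 0.972 CPM in LN-229 and 0.478 and 0.257 CPM in U251, and HOXB2 and HOXB-AS3 had at most 8 reads in any library. HOXB3 shares exon bases with HOXB4 and HOXB6, so the split of reads among them depends on the authors' estimation.

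In HOXA, HOXA10, known from haematopoiesis, leukaemia and the uterus, marked LN-229. It was at 4.79 and 6.63 CPM in LN-229 and at 0.565 and 0.591 CPM in T98G, and it had 0 reads in both U251 libraries. Against the limit of 3 reads, HOXA10 was at least 83.5 times higher in siControl LN-229 cells than in siControl U251 cells. The U251 minus LN-229 difference of HOXA10 was -2.73 ± 0.15 (adjusted p = 6.6e-18), in a gene that entered the test through LN-229 alone. HOXA2 and HOXA3, at the 3′ end of HOXA, act in the hindbrain and the pharyngeal arches. HOXA2 was at 0.566 to 0.825 CPM in LN-229 and T98G and at 1 read in each U251 library. HOXA3 had 1.25 and 2.01 CPM in LN-229, 0.782 and 1.43 CPM in T98G, and 0 and 6 reads in U251.

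HOXA5 and HOXA6, in the middle of HOXA, were lowest in T98G. HOXA5, a gene of lung and thoracic development, was at 1.21 and 1.73 CPM in LN-229, 0.290 and 0.440 CPM in T98G and 0.689 and 1.29 CPM in U251. HOXA6 was at 0.532 and 0.981 CPM in LN-229, 0.116 and 0.151 CPM in T98G and 0.364 and 0.524 CPM in U251. Per kb of transcript, HOXA5 averaged 0.881 CPM in LN-229 against 0.218 CPM in T98G and 0.594 CPM in U251. HOXA13, which patterns the limb ends and the hindgut, was highest in T98G, with 1.52 and 1.65 CPM in T98G, 0.170 and 0.221 CPM in LN-229, and 0.0383 and 0.346 CPM in U251. HOXA7, HOXA9 and HOXA11 stayed at or below 0.566 CPM in all libraries and HOXA4 at or below 0.237 CPM.

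The genes at either end of HOXC had similar levels in the 3 lines. HOXC13, known from hair and nail, was at 2.38 and 3.23 CPM in LN-229, 2.4 and 2.87 CPM in T98G and 2.62 and 3.75 CPM in U251. HOXC4, at the other end of the cluster, was at 2.04 and 1.84 CPM, 1.56 and 1.57 CPM, and 2.18 and 1.75 CPM in the same order. Neither differed between the lines in the test over all 3 (adjusted p = 0.508 for HOXC13 and 0.360 for HOXC4), as was the case for HOXD4 (0.456) and HOXD9 (0.150). HOXC10, a gene of the lumbar level, had the highest CPM per kb of the cluster in every line, and it was at 5.15 and 5.35 CPM in LN-229, 4.31 and 4.10 CPM in T98G and 6.84 and 5.69 CPM in U251, with per-kb means of 2.66, 2.13 and 3.17 CPM. HOXC10 was higher in U251 than in T98G by 0.48 ± 0.17 (adjusted p = 0.0165). In the test over all 3 lines it passed at an adjusted p of 0.0405. That call over the lines was lost after median centring. It was also lost without 5 of the 6 libraries in turn, the siHOTAIRM1 U251 library being the exception.

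Between these ends, HOXC genes of the thoracic levels were higher in LN-229. HOXC8 was at 2.5 and 2.62 CPM in LN-229, 1.01 and 0.962 CPM in T98G and 0.211 and 0.415 CPM in U251, and HOXC9 at 2.95 and 2.81 CPM, 0.608 and 0.907 CPM, and 0.938 and 1.32 CPM. The LN-229 libraries lay above all others for both. The U251 minus LN-229 differences were -1.44 ± 0.14 for HOXC8 (adjusted p = 1.01e-10) and -0.87 ± 0.15 for HOXC9 (adjusted p = 6.87e-06). Of these genes, HOXC8 entered the test through LN-229 alone. HOXC11, a gene of the sacral level and the hindlimb, was at 2.96 and 2.71 CPM in LN-229 and 1.58 and 1.18 CPM in T98G, with 1 read in each U251 library. For HOXC11 the siControl LN-229 level was 155 times that in siControl U251 cells (interval 27.5 to 6126). HOXC6 was at 1.73 to 3.57 CPM and HOXC5 at 0.196 to 0.751 CPM over the 6 libraries, and HOXC6 shares exon bases with HOXC4 and HOXC9. HOXC6 was lower in T98G than in LN-229 by 0.62 ± 0.16 (adjusted p = 0.00142), which did not hold in the test over the lines without the siControl LN-229 (adjusted p = 0.0701) or the siControl T98G library (0.0783).

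HOXD4 and HOXD8 to HOXD11 were on in all lines, but the order of the lines differed between genes of the 5′ end. HOXD10, with HOXC10 a gene of lumbar motor neurons, was at 1.82 and 2.45 CPM in LN-229, 6.66 and 9.45 CPM in T98G and 7.15 and 12.5 CPM in U251. HOXD11, a gene of the forearm, was at 1.33 and 1.60 CPM, 3.25 and 4.05 CPM, and 5.41 and 6.76 CPM. Both were lowest in LN-229, with U251 minus LN-229 differences of 1.75 ± 0.18 (adjusted p = 1.21e-10) for HOXD10 and 1.52 ± 0.16 (adjusted p = 6.81e-10) for HOXD11. They share 452 exon bases on the same strand, so their reads were in part split by estimation. HOXD13, which patterns the digits, was highest in LN-229 instead, with 5.04 and 4.80 CPM against 1.46 and 1.26 CPM in T98G and 1.19 and 0.820 CPM in U251 (U251 minus LN-229 -1.57 ± 0.16, adjusted p = 7.74e-11).

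Of the other HOXD genes, HOXD8 was at 3.99 and 4.0 CPM in LN-229, 3.68 and 3.40 CPM in T98G and 7.81 and 4.31 CPM in U251, HOXD9 at 1.84 to 3.44 CPM and HOXD4 at 1.01 to 1.53 CPM over the 6 libraries. For HOXD8 the U251 minus T98G difference of 0.59 ± 0.18 passed (adjusted p = 0.00521). The limma test over all 3 lines passed as well (adjusted p = 0.00977). That call over the lines was lost without the siControl U251 library (difference 0.25) or either T98G library. It was also lost after median centring (adjusted p = 0.168). HOXD3 was highest in U251 with 1.45 and 1.5 CPM and stayed at 0.603 to 0.814 CPM in the other lines. HOXD1 was at 0.329 and 0.481 CPM in LN-229, 0.0290 and 0.0687 CPM in T98G and 0.191 and 0.346 CPM in U251 and HOXD12 had at most 7 reads.

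**Figure D2:**
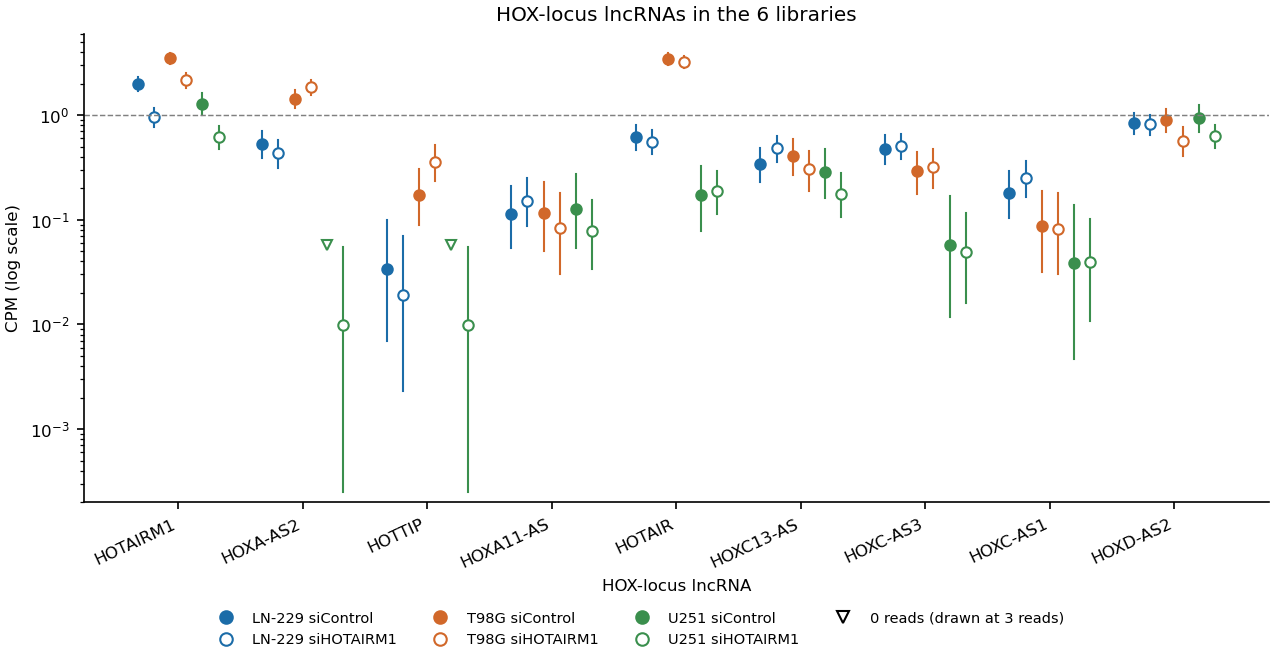
Levels of 9 HOX-locus lncRNAs in CPM on a log axis in each library, with filled circles for siControl, open circles for siHOTAIRM1, colours for the cell lines, bars for exact 95% counting intervals and triangles for libraries with 0 reads, drawn at the level of 3 reads. The dashed line is 1 CPM. HOTAIR and HOXA-AS2 lie above it in both T98G libraries only, and HOTAIRM1 is lower in siHOTAIRM1 than in siControl in each line.

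Of the lncRNAs, HOTAIR, HOTAIRM1 and HOXA-AS2 were on in T98G and none was on in LN-229 or U251. HOTAIR, transcribed from HOXC, was at 3.45 and 3.20 CPM in T98G, 0.623 and 0.558 CPM in LN-229 and 0.172 and 0.188 CPM in U251. The T98G minus LN-229 difference of HOTAIR was 1.44 ± 0.14 (adjusted p = 6.12e-11), in a gene that entered the test through T98G alone. HOTAIR shares no exon bases with another member, so these reads are not those of an opposite-strand neighbour in the list. HOXA-AS2 was at 1.43 and 1.84 CPM in T98G and 0.532 and 0.433 CPM in LN-229, and had 0 and 1 reads in U251. HOTTIP reached 0.174 and 0.357 CPM in T98G and at most 3 reads elsewhere, in the line in which HOXA13 next to it was on, and the pair share 86 exon bases on opposite strands. HOXD-AS2 had similar levels in all lines (0.564 to 0.938 CPM), HOXC13-AS was at 0.178 to 0.481 CPM, HOXC-AS3 at 0.0494 to 0.510 CPM, HOXC-AS1 at 0.0383 to 0.250 CPM and HOXA11-AS at 0.0785 to 0.152 CPM. HOXA-AS3 and HOXC-AS2 had at most 9 and 5 reads.

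HOTAIRM1 itself was the target of the knock-down. It was at 1.99 CPM (176 reads) in siControl and 0.952 CPM (99 reads) in siHOTAIRM1 LN-229 cells, at 3.49 and 2.14 CPM in T98G (241 and 156 reads), and at 1.27 and 0.622 CPM in U251 (67 and 63 reads). The siHOTAIRM1 library was lower in each line, but the siHOTAIRM1 level in T98G was above the siControl levels of LN-229 and U251, so the groups overlapped. The CPM ratio was 0.478 (interval 0.370 to 0.614) in LN-229, 0.615 (0.499 to 0.755) in T98G and 0.489 (0.339 to 0.695) in U251. Over the lines HOTAIRM1 fell by 0.54 ± 0.12 on the log2(CPM + 1) scale (limma with the cell line as block, n = 3 lines, adjusted p = 0.0146). This call was lost without LN-229 (adjusted p = 0.0711), without T98G (0.435), with the libraries rescaled to the listed genes (0.204) or centred on their medians (0.170).

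In the test over the lines, 59 of 14294 genes were higher (0.413%) and 227 lower (1.59%) at an adjusted p under 0.05. HOTAIRM1 was the only one of the 22 members tested to pass, and 4 members had an unadjusted p under 0.05 (HOTAIRM1, HOXD10, HOXC13 and HOXB3). The median change was -0.02 for the 22 members and -0.07 for all genes tested. Without the block, 0 genes passed. The p-values rest on 3 cell lines with 1 library per condition each. The fit draws each gene's spread towards that of genes at a similar level. They therefore do not measure the spread of that gene between the lines alone.

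**Figure D3:**
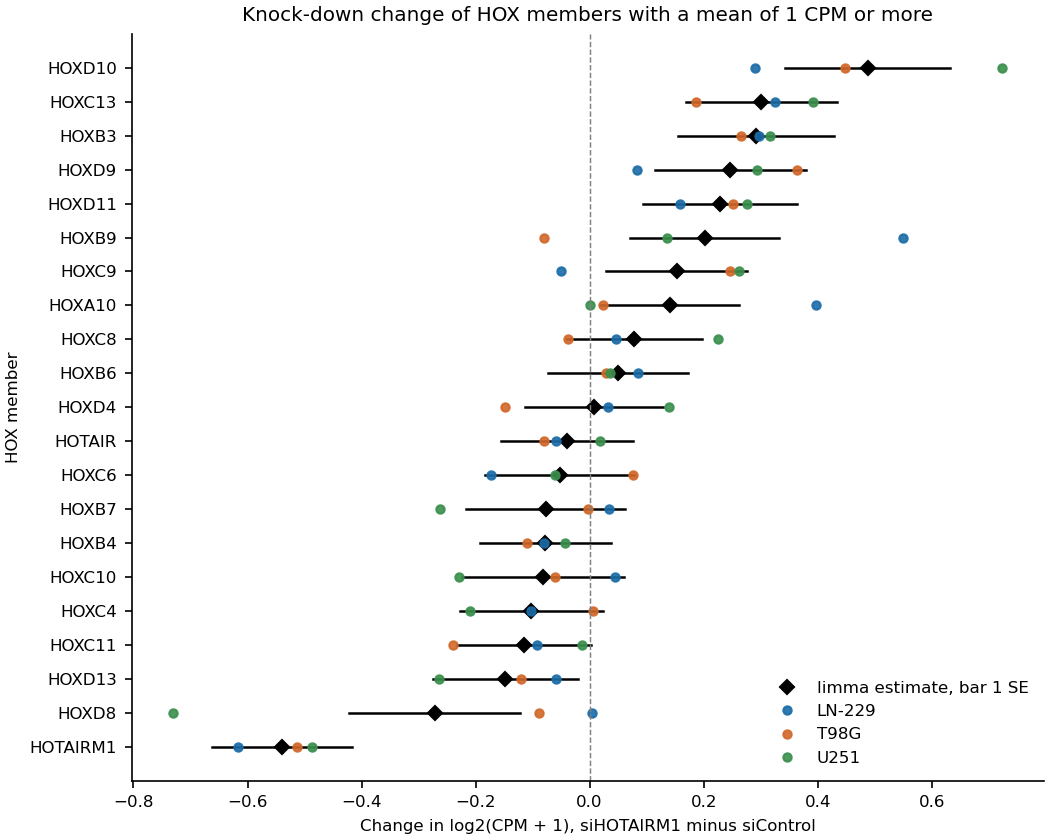
Change in log2(CPM + 1) after HOTAIRM1 knock-down (x axis) for HOX members tested (y axis, ordered by the estimate), with coloured points for the cell lines and black diamonds with bars for the limma estimate ± 1 SE. HOTAIRM1 is lowest at -0.54 and HOXD10 highest at 0.49, and the 3 lines lie close together for HOXB3 and HOTAIRM1 and far apart for HOXD8 and HOXB9.

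HOXD10 had the largest positive estimate. Its levels given above went with CPM ratios of 1.35 (interval 1.10 to 1.65) in LN-229, 1.42 (1.26 to 1.60) in T98G and 1.74 (1.55 to 1.96) in U251, each interval above 1. The estimate was 0.49 ± 0.14 (adjusted p = 0.0652), and it passed with a pseudocount of 0.1 (adjusted p = 0.0391) but in no other setting tried. HOXC13 had ratios of 1.36 (1.14 to 1.62), 1.2 (0.971 to 1.47) and 1.43 (1.17 to 1.75) and an estimate of 0.30 ± 0.13 (adjusted p = 0.218). HOXB3 had ratios of 1.31, 1.31 and 1.28 and an estimate of 0.29 ± 0.14 (adjusted p = 0.248). HOXD9 (0.25 ± 0.13) and HOXD11 (0.23 ± 0.13), the genes on either side of HOXD10, had adjusted p-values of 0.320 and 0.368.

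Agreement of direction over the lines was read against all genes. Of the 22 members, 6 were higher in all 3 lines (HOXB3, HOXB6, HOXC13, HOXD9, HOXD10 and HOXD11), where 11.4% of all genes tested were, and 4 were lower (HOTAIRM1, HOXB4, HOXC11 and HOXD13), where 28.1% were, HOXC11 having 1 read in each U251 library. Of 26 members with at least 20 reads in each line, the CPM ratio was above 1 in all 3 lines for 8 (the same 6 genes with HOXA5 and HOXA13), against 12.2% of such genes, and below 1 for 4 (HOTAIRM1, HOXB4, HOXD-AS2 and HOXD13), against 26.6%. The shares of all genes depend on the scale of each library. In T98G the median CPM ratio of all genes with 20 reads was 0.863, against 1.01 in LN-229 and 0.994 in U251. Relative to the median gene, the ratios of HOXB4 and HOXD13 in T98G turned above 1, and the 8 higher members stayed higher in all 3 lines.

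Within a line the change was read from 1 library per condition and no test was made. At least 20 reads in the pair of libraries were found for 42 members of the LN-229 libraries, 35 of T98G and 31 of U251. The CPM ratio was above 1 for 28 of 42 in LN-229 (52.4% of all genes), for 20 of 35 in T98G (26.2%) and for 18 of 31 in U251 (49.3%). The median ratio of the members was 1.08, 1.05 and 1.09 in these lines.

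**Figure D4:**
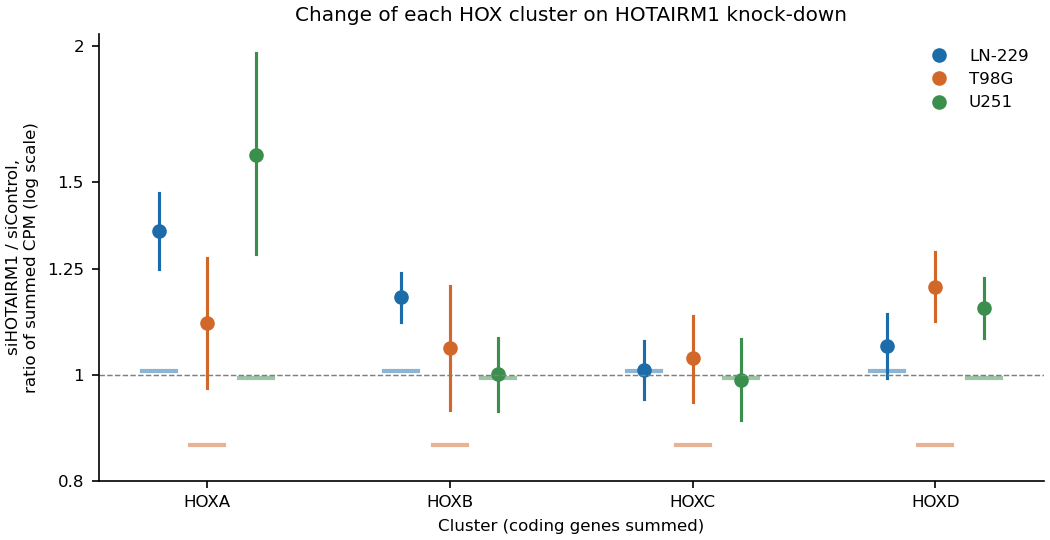
Ratio of the summed CPM of the coding genes of each HOX cluster, siHOTAIRM1 over siControl, on a log axis, with bars for exact 95% counting intervals, colours for the cell lines and short horizontal lines for the median ratio of all genes of that line. The HOXA sum is at 1.35 in LN-229 and 1.59 in U251 with intervals above 1, and HOXC lies near 1 in the 3 lines on the deposited scale, but at 1.21 in T98G and 1.19 in U251 after rescaling to the listed genes.

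Of the summed cluster ratios, that of HOXA was the highest in LN-229 and U251 and that of HOXD in T98G. The summed CPM of HOXA was 1.35 times as high in siHOTAIRM1 as in siControl LN-229 cells (interval 1.25 to 1.47), 1.11 times in T98G (0.973 to 1.28) and 1.59 times in U251 (1.29 to 1.97). The HOXD ratios were 1.06 (0.993 to 1.14), 1.2 (1.12 to 1.30) and 1.15 (1.08 to 1.23). HOXB was at 1.18 (1.12 to 1.24), 1.06 (0.928 to 1.21) and 1.0 (0.927 to 1.08), and HOXC at 1.01, 1.04 and 0.989. The ratios of HOXA, HOXB and HOXD stayed above 1 in the 3 lines under both other scales, while HOXC turned from 0.989 to 1.19 in U251 and from 1.01 to 0.979 in LN-229 after rescaling to the listed genes. In U251 the HOXA sum rests on 120 reads in siControl and 369 in siHOTAIRM1.

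The LN-229 libraries gave 4 members at 1.5-fold or more above siControl, where 5.27% of all genes were, and 1 below (HOTAIRM1), where 4.71% were. The members above were HOXA3 at a ratio of 1.61 (interval 1.27 to 2.05), HOXA6 at 1.84 (1.29 to 2.66), HOXB8 at 1.84 (1.34 to 2.56) and HOXB9 at 1.55 (1.38 to 1.74). All 4 intervals lie above 1, and the genes belong to HOXA and HOXB. HOXA10, the highest HOXA gene of this line, had a ratio of 1.38 (1.22 to 1.56), and HOXA5 one of 1.43 (1.12 to 1.83). Of 10 HOXA coding genes with enough reads 8 were above 1, HOXA7 and HOXA9 being the others, and of 8 HOXC genes 4.

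In T98G, 5 members were above siControl by 1.5-fold or more (4.16% of all genes) and 2 below (11.5%). Those above were HOXA3 at 1.83 (1.30 to 2.59), HOTTIP at 2.06 (1.0 to 4.48), HOXA5 at 1.52 (0.843 to 2.80), HOXB5 at 2.03 (0.781 to 5.90) and HOXC5 at 1.78 (0.952 to 3.28). The interval of HOXA3 lies above 1, that of HOTTIP starts at 1.0 and those of the other 3 reach below 1, HOXB5 resting on 7 and 15 reads. Those below were HOTAIRM1 and HOXD-AS2, the latter at 0.628 (0.413 to 0.947). Relative to the median gene of T98G, 10 members were above by 1.5-fold (8.19% of all genes) and 0 below (5.21%).

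U251 had the widest changes, for HOX members as for all genes. There, 6 members were above siControl by 1.5-fold or more, where 14.2% of all genes were, and 5 below, where 12.9% were. HOXA13 had 2 reads in siControl and 35 in siHOTAIRM1, which with the siControl library set to 3 reads is a ratio of 6.02 (interval 2.32 to 77.5). HOXD10 was at 1.74 and HOXA5 at 1.88 (1.29 to 2.80), and HOXA4 at 2.48 (0.927 to 8.32), HOXC8 at 1.97 (0.997 to 4.25) and HOXD1 at 1.81 (0.876 to 4.09) had intervals that reach below 1. By the CPM scale the siControl library of U251 had the lowest depth, at 52.3 M reads. On the listed genes it had 35.1 M reads, above the siControl (34.7 M) and siHOTAIRM1 (31.2 M) libraries of T98G.

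On the lower side in U251, HOXD8 stood out among the genes of its cluster. It had 408 reads in siControl and 436 in siHOTAIRM1, at depths of 52.3 and 101 M reads, and a ratio of 0.552 (0.481 to 0.633). In LN-229 and T98G the ratio of HOXD8 was 1.0 (0.869 to 1.16) and 0.923 (0.772 to 1.10). HOXD8 shares 642 exon bases with HOXD-AS2 on the other strand, which was at 0.674 (0.458 to 0.999) in U251, and reads of the pair cannot be told apart there. HOXB13 was at 0.537 (0.298 to 0.969), HOXC5 at 0.561 (0.288 to 1.15) and HOXC13-AS at 0.620 (0.295 to 1.32), beside HOTAIRM1. HOXB7, with 540 and 855 reads, was at 0.817 (0.733 to 0.912) in U251, 1.03 (0.942 to 1.12) in LN-229 and had 2 reads in each T98G library.

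**Figure D5:**
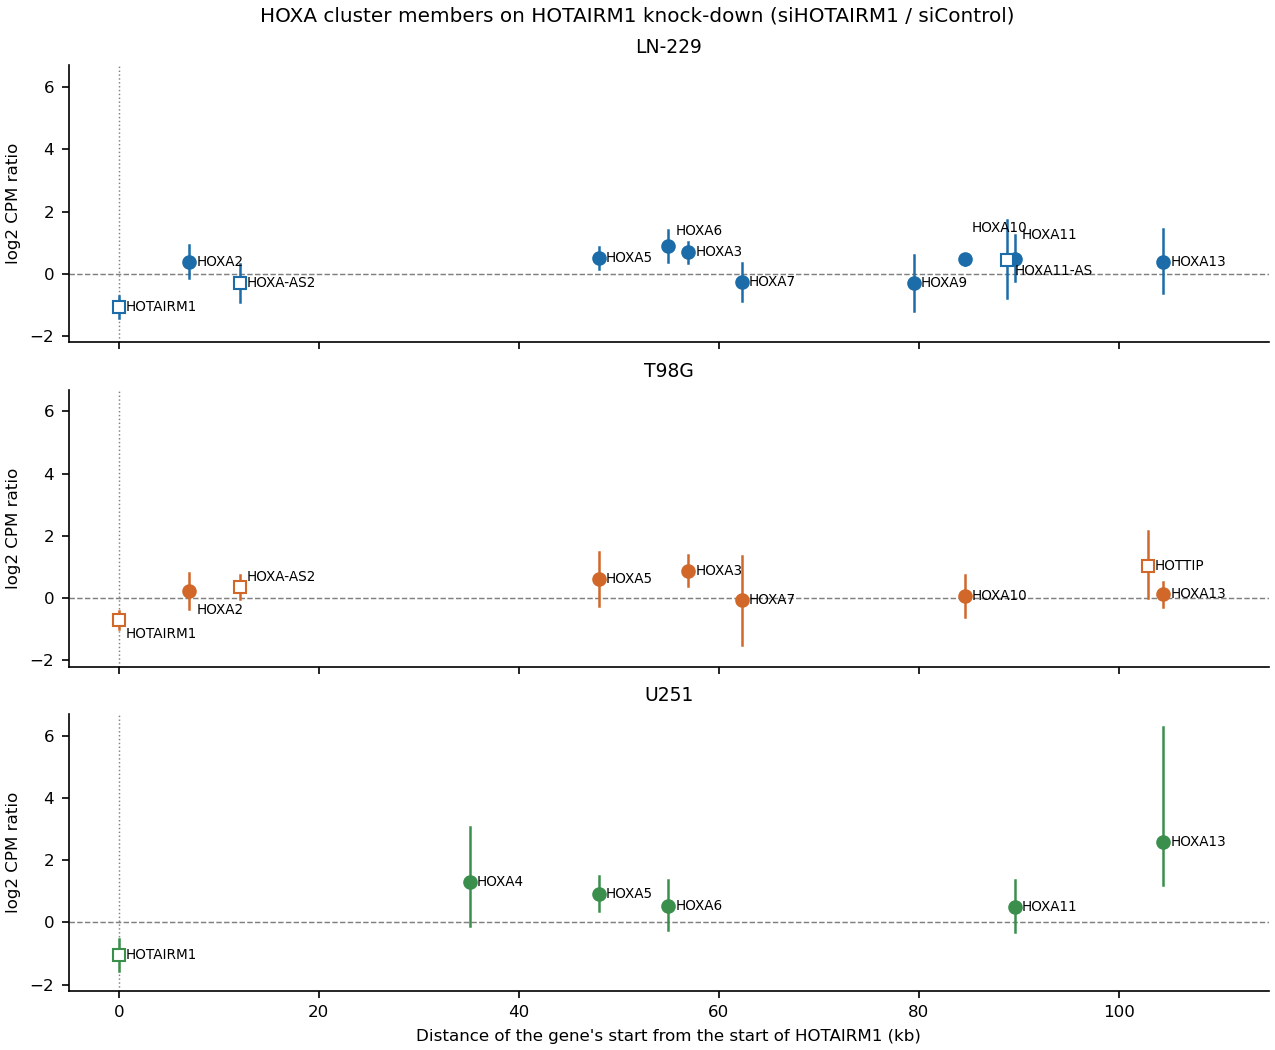
log2 of the CPM ratio (siHOTAIRM1 over siControl, y axis) of HOXA cluster members with at least 20 reads in a line, by the distance of their annotated start from that of HOTAIRM1 in kb (x axis), with circles for coding genes, open squares for lncRNAs and bars for exact 95% counting intervals. HOTAIRM1 is below 0 in each line, and HOXA3 and HOXA5, further along, lie above 0 wherever they had enough reads. HOXA3 is drawn at its outermost annotated start (27152583), beyond HOXA5, although RefSeq also lists HOXA3 starts nearer to HOTAIRM1.

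Along the HOXA cluster, HOXA2, close to HOTAIRM1, had ratios of 1.31 (0.904 to 1.91) in LN-229 and 1.16 (0.784 to 1.73) in T98G. HOXA3 was higher in LN-229 and T98G, and HOXA5 in all 3 lines, with ratios of 1.43, 1.52 and 1.88. HOXA13, at the far end, had ratios of 1.30 (0.651 to 2.68) in LN-229 and 1.09 (0.828 to 1.42) in T98G beside the 6.02 of U251. HOXA-AS2, which shares 455 exon bases with HOXA3, had ratios of 0.813 (0.528 to 1.25) in LN-229 and 1.29 (0.984 to 1.68) in T98G, so the higher HOXA3 reads went with lower HOXA-AS2 reads in the former and higher ones in the latter.

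HOTAIR, HOXB9, HOXC10 and HOXD13, which differed between the lines, did not pass in the knock-down test. HOTAIR had ratios of 0.895 (0.608 to 1.32), 0.930 (0.773 to 1.12) and 1.09 (0.470 to 2.74) and an estimate of -0.04 ± 0.12 (adjusted p = 0.893), whose sign turned after rescaling. HOXB9 had ratios of 1.55 in LN-229, 0.827 (0.475 to 1.43) in T98G and 1.23 (0.839 to 1.84) in U251 (0.20 ± 0.13, adjusted p = 0.419). HOXC10, the highest HOXC gene, was at 1.04, 0.950 and 0.831 (-0.08 ± 0.14, adjusted p = 0.802). HOXD13, the opposite of HOXD10 between lines, was also on the other side here, at 0.952 (0.836 to 1.08), 0.865 (0.645 to 1.16) and 0.691 (0.491 to 0.977), with an estimate of -0.15 ± 0.13 (adjusted p = 0.560). The remaining tested members named here (HOXA10, HOXB4, HOXB6, HOXB7, HOXC4, HOXC6, HOXC8, HOXC9, HOXC11, HOXD4 and HOXD8) had estimates between -0.27 and 0.15 with adjusted p-values of 0.331 or more.

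When genes averaging 0.1 CPM or more were tested with a pseudocount of 0.1, 41 members entered and 0 passed, where 0.395% of 20767 genes did. HOTAIRM1 was then at an adjusted p of 0.0779. In that fit 33 of the 41 members differed between the cell lines, against 75.9% of all genes.

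Genes that act with or on HOX clusters were read from lists of known members, of which 1 gene passed the threshold. None of the 11 tested TALE homeodomain cofactors, which bind DNA with HOX proteins, passed, the largest changes being 0.37 for PBX2 (adjusted p = 0.160) and 0.32 for MEIS1 (0.220). None of 30 Polycomb genes (PCGF3 0.34, adjusted p = 0.204; KDM2B 0.33, 0.236), of 18 Trithorax and H3K27 demethylase genes (DOT1L 0.47, 0.0731; KDM6B 0.40, 0.113) or of 8 loop and boundary factors (SMC1A 0.51, 0.0702; STAG1 -0.34, 0.196) passed. Of 12 retinoic acid pathway genes 1 fell, STRA6, the receptor for retinol uptake, by 0.81 (adjusted p = 0.00223), and ALDH1A1, which makes retinoic acid, was at -0.26 (adjusted p = 0.287). The median changes were 0.14 for the cofactors, 0.16 for Trithorax genes and -0.00081 for Polycomb genes, beside -0.07 for all genes.

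Of 19 tested genes in the wider surroundings of the clusters, 0 passed and 16 were below 0, as were 63.8% of all genes tested. Their median was -0.24, with TAX1BP1 (-0.45, adjusted p = 0.113) and ATP5G1 (-0.42, adjusted p = 0.130) farthest from 0. Not all of these genes lie next to a cluster, since TAX1BP1 starts at chr7:27739331 and the HOXA members end at 27207259. HAGLR, a lncRNA of the HOXD cluster named outside the HOX pattern, was at 6.99 and 8.11 CPM in LN-229, 3.33 and 3.24 CPM in T98G and 5.32 and 4.91 CPM in U251, with a change of 0.02 (adjusted p = 0.958). The homeobox genes EVX1, EVX2, CDX1, CDX2, CDX4, GSX1 and PDX1 had at most 3 reads in any library, and GSX2 was at 0.746 and 0.464 CPM in U251.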

How the data were processed

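RNA was sequenced from 3 glioblastoma cell lines with siControl or siHOTAIRM1. The authors trimmed reads in Partek Flow, aligned them with STAR 2.4.1d to hg38, quantified Ensembl genes by expectation maximization and deposited CPM values with 0.0001 added, which was subtracted. Read counts were derived from the steps between low values. Since 71.5 to 76.5% of values were whole reads (within 0.02), no count test was run. log2(CPM + 1) of 14294 genes averaging 1 CPM or more was fitted with limma 3.58.1 (R 4.3.3, trended), with cell line and condition as terms and Benjamini-Hochberg adjustment. Libraries of a line deviated together (r = 0.948 to 0.967, -0.526 to -0.467 between lines), the pairing coming from the cell line. Within a line, CPM ratios were given exact conditional binomial intervals (scipy 1.17.1), with libraries under 3 reads set to 3. Exons and 3′ UTRs came from GENCODE 44, which is not the authors' annotation. Members with a mean of at least 1 CPM were named with their test and the others by level; of each list, genes that passed or the 2 with the largest change were named. Members and lists were chosen with earlier results of these data known. The fit was tested on simulated data. Some genes that entered the counts are not reported here by name, and the plots leave them out.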

Additional observations from a re-analysis of the deposited data

How the results depend on the processing

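With 1 library per line and condition, the depth limits members near 3 reads, and the call of HOTAIRM1 depended on the fit. HOTAIRM1 changed by -0.54 without the replicate block (adjusted p = 1.0, limma), with 0 genes higher, 0 lower and 0 HOX members past the threshold, and likewise by -0.54 from each gene's own paired statistic (adjusted p = 0.637, 0 higher, 0 lower, 0 members). The change was -0.46 after median centring (adjusted p = 0.170, 15 genes higher, 26 lower, 0 members), -0.56 after rescaling to the listed genes (0.204, 10 higher, 15 lower, 0 members), -0.54 without a filter (0.677, 0 higher, 0 lower, 0 members) and -0.87 with a filter and pseudocount of 0.1 (0.0779, 19 higher, 63 lower, 0 members). A pseudocount of 0.1 alone gave 149 genes higher, 534 lower and 2 members, HOTAIRM1 and HOXD10. Leaving out a line gave 0 to 40 genes higher, 0 to 239 lower, 0 to 1 members and -0.56 to -0.50 for HOTAIRM1. With the filter of 0.1 CPM 33 of 41 members differed between the lines, against 75.9% of all genes. Without a filter 31 of 54 did, a count that is not set against all genes here and so says nothing particular about HOX members. Members on numbered 43, 41 and 33 at 3 reads, 42, 36 and 29 at 0.1 CPM, and 4, 1 and 5 at 5 CPM in LN-229, T98G and U251. Members past 1.5-fold in T98G numbered 10 higher and 0 lower under both other scales (8.25% and 5.06% of all genes after rescaling), and in U251 13 higher and 3 lower after rescaling (26.1% and 5.93% of all genes). Signs that turned were of members not past the threshold. After median centring these were HOTAIR (0.038), HOXB4 (0.00083), HOXB7 (0.0018) and HOXC6 (0.026), and between U251 and T98G HOXC13 (-0.0200), HOXC4 (-0.0075) and HOXD4 (-0.025). After rescaling they were HOTAIR (0.028), HOXC10 (0.048) and HOXC6 (0.0605), and between U251 and T98G HOXC13 (-0.12), HOXC4 (-0.065) and HOXD4 (-0.041). Leaving out a line gave -0.13 to 0.016 for HOXB7, -0.12 to 0.0076 for HOXC6 and -0.058 to 0.086 for HOXD4. The causes were not tested.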
